A study of Mus musculus with 12 samples.

Results

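Follicular helper T (Tfh) cultures started from OT-II mice were compared with the same kind of culture started from wild-type mice. The comparison used 6 of the series' 12 RNA-seq libraries, chosen by their titles and source names: 3 from OT-II cells (Tfh_OTII) and 3 from wild-type cells (Tfh_WT). All mice were C57BL/6J and 7 weeks old, and naive T cells came from spleen and lymph nodes. OT-II mice carry transgenic alpha and beta chains of a T cell receptor for an ovalbumin peptide presented by MHC class II, and the labels name no further allele. Per the treatment protocol, naive CD4+ T cells on plates coated with CD3 and CD28 antibodies received IL-6 and IL-21 at 50 ng/ml each, with 10 µg/ml of each antibody blocking IL-4, IFNγ and TGFβ. The titles state 24 h for the wild-type and 48 h for the OT-II cultures, whereas the protocol states 48 h for Tfh cultures, and the growth protocol mentions wild-type mice alone. Genotype and title hours therefore separate the same libraries and cannot be told apart here.

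Tfh cells are CD4+ T cells that help B cells in germinal centres. They depend on the repressor Bcl6, are found by the chemokine receptor Cxcr5 and the inhibitory receptor Pdcd1, and secrete IL-21. IL-6 and IL-21 act on naive T cells through Stat3, and dividing T cells pass through DNA replication and mitosis within days of activation. Foxp3+ regulatory T cells, which restrain helper responses, come from the thymus or arise from naive cells, the latter with TGFβ as a main signal.

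Values are TPM, length-corrected transcript abundances, divided by a size factor for each library, and are called scaled TPM. Size factors ranged from 1.10 to 1.30 in Tfh_WT and from 1.06 to 1.44 in Tfh_OTII. The deposited values hold no counts, so depth is unknown. Symbols listed at 0 made up 13.7%, 8.20% and 8.53% of all symbols in Tfh_WT replicates 1 to 3, and 9.92%, 17.9% and 23.9% in Tfh_OTII. Spearman correlations over genes ranged from 0.954 to 0.969 within Tfh_WT, from 0.928 to 0.948 within Tfh_OTII, and from 0.887 to 0.936 between the groups. Nothing in the labels says that replicates came from separate animals or cultures, so p-values reflect how far these libraries vary, and part of that variation may be technical.

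The receptor segments separated the groups as the genotype labels state. Segments of the Trav14 family, from which the OT-II alpha chain is built, made up 11.3%, 12.0% and 10.9% of alpha variable segment TPM in Tfh_WT, and 83.6%, 87.0% and 87.5% in Tfh_OTII. Segments of the Trbv12 family, the source of the beta chain, made up 4.32%, 3.73% and 3.59% of beta variable segment TPM in Tfh_WT, and 35.9%, 34.7% and 35.8% in Tfh_OTII. Every Tfh_OTII library lay above every Tfh_WT library for both families (exact two-sided permutation p = 0.1 for each, the smallest that 3 against 3 allows). Cd4, the coreceptor of helper T cells, had 149, 124 and 109.8 scaled TPM in Tfh_WT and 98.8, 127 and 151 in Tfh_OTII, and these ranges overlapped. None of 22 genes of T cell identity and the receptor complex was called by limma (3 had an unadjusted p under 0.05, and a fit of the 6 libraries called 0), with a median log2 fold change of 0.09. The labels give no sex, but the chromosome Y genes Ddx3y and Eif2s3y had at most 1.13 and 1.62 scaled TPM in Tfh_WT and at least 20.6 and 34.8 in Tfh_OTII. Chromosome Y genes were left out of the tests.

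Of 19660 genes tested, 117 (0.595%) were higher and 291 (1.48%) were lower in Tfh_OTII at an adjusted p under 0.05 (limma over all 12 libraries, Benjamini-Hochberg), 408 or 2.08% in all. Fold changes are differences in mean log2(scaled TPM + 1), which understate changes of genes near 0, and carry limma's moderated standard error (SE). Over all genes tested the median was 0.04. The spread in this test was pooled over all 4 groups of the series. A fit of the 6 compared libraries alone called 448 genes higher (2.28%) and 694 lower (3.53%), which held 116 of the 117 and 290 of the 291. The calls also depended on single libraries: 23 of the 117 and 41 of the 291 were called in all 6 fits that left out 1 compared library. Genes higher fell to 30 and lower to 51 without Tfh_WT replicate 3, and to 31 and 50 without Tfh_OTII replicate 3.

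**Figure D1:**
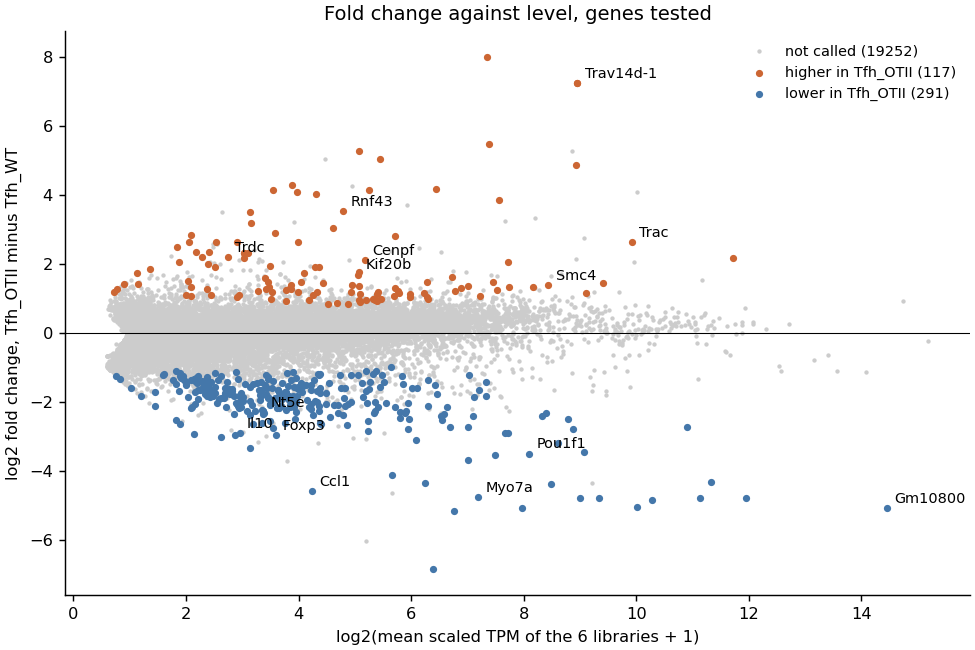
Log2 fold change (Tfh_OTII minus Tfh_WT, vertical axis) against log2 of the mean scaled TPM of the 6 libraries plus 1 (horizontal axis) for 19660 genes; each point is a gene, coloured where called. The 291 lower genes outnumber the 117 higher ones, and the single-copy genes named lie on both sides, from Rnf43 and Cenpf above 0 to Ccl1 and Myo7a below.

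Several genes of regulatory T cells were lower in Tfh_OTII. Of 20 listed genes of the regulatory and follicular regulatory programme, all of which were tested, 7 were lower, 0 were higher and 13 did not pass, beside 1.48% of all genes called lower. The list's median log2 fold change was -0.85, and it lay between -0.82 and -0.98 under 3 other scalings. In 14 of the 20 the groups did not overlap and Tfh_OTII was lower, against 11.3% of all genes tested. In bulk RNA, fewer cells of a type and less RNA per cell cannot be told apart.

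Foxp3 (chrX, 7573644 to 7595245, plus strand, GRCm38), the transcription factor that defines regulatory T cells, had 26.1, 11.3 and 24.4 scaled TPM in Tfh_WT and 1.52, 1.74 and 1.57 in Tfh_OTII. The 3 Tfh_OTII libraries were close together and far below the lowest Tfh_WT library. Foxp3 fell by 2.96 on the log2 scale (SE 0.35, adjusted p = 0.00153 by limma), and it was called in all 6 leave-one-out fits. For orientation, Foxp3 was 1.53 ± 0.653 (SD, n = 3) in the Th1 cultures of the series and 68.9 ± 30.1 in Tfh cells sorted from tumours.

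Nt5e, the ectoenzyme CD73 that makes adenosine, had 19, 12.7 and 17.5 scaled TPM in Tfh_WT and 2.72, 2.69 and 2.02 in Tfh_OTII. It fell by 2.31 (SE 0.28, adjusted p = 0.00165), again with no overlap and in all 6 leave-one-out fits. Ikzf2, the regulatory T cell factor Helios, had 48.3, 22.2 and 48.2 in Tfh_WT and 7.17, 8.19 and 8.86 in Tfh_OTII (log2 fold change -2.08, SE 0.37, adjusted p = 0.0131). Its call held in 2 of 6 leave-one-out fits, without Tfh_WT replicate 2 or Tfh_OTII replicate 2, and adjusted p was 0.0525 without Tfh_WT replicate 1, 0.0858 without Tfh_WT replicate 3, 0.0514 without Tfh_OTII replicate 1 and 0.0628 without Tfh_OTII replicate 3. Tfh_WT replicate 2 had the lowest level of its group for Foxp3, Nt5e and Ikzf2 alike.

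Il10, an inhibitory cytokine, had 12.6, 8.27 and 17.2 scaled TPM in Tfh_WT and 0.68, 1.23 and 0.44 in Tfh_OTII, a fall by 2.91 (SE 0.50, adjusted p = 0.012). It lost the call without Tfh_WT replicate 3 (adjusted p = 0.08) and without Tfh_OTII replicate 3 (0.0768). Maf, a factor that drives Il10 and Tfh genes and is in the Tfh list, not this one, fell by 2.27 (SE 0.38, adjusted p = 0.0105), from 16.3 ± 4.59 to 2.51 ± 0.377 (SD, n = 3), and lost the call without the same libraries (0.0755 and 0.0654). The other 3 regulatory genes called were Lrrc32, which docks latent TGFβ on the cell surface, with 7.63 ± 2.51 in Tfh_WT and 2.29 ± 0.626 in Tfh_OTII, the receptor Gpr83, with 6.33 ± 0.674 and 2.02 ± 0.0821, and the inhibitory receptor Tigit, with 220 ± 44.2 and 73.0 ± 35.1. Their adjusted p was 0.0248, 0.0399 and 0.0353. The call of Lrrc32 held in 2 of the 6 leave-one-out fits, without Tfh_WT replicate 2 or Tfh_OTII replicate 1 (adjusted p from 0.0277 to 0.171 over the 6), that of Tigit in 1, without Tfh_OTII replicate 2 (0.0168 to 0.203), and that of Gpr83 in 0 (0.0971 to 0.174). With 1 library left out, the number of regulatory genes called was 3, 5 and 2 without Tfh_WT replicates 1, 2 and 3, and 4, 5 and 2 without Tfh_OTII replicates 1, 2 and 3. In the fit of 6 libraries 10 of the 20 were lower.

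Other genes of the same list did not pass. Il2ra, the IL-2 receptor alpha chain, had 395 ± 72.5 scaled TPM in Tfh_WT and 339 ± 68.2 in Tfh_OTII (log2 fold change -0.22, adjusted p = 0.77). Ctla4, an inhibitory receptor of regulatory and activated T cells, had 154 ± 24.6 and 117 ± 15.4 (-0.39, adjusted p = 0.765). Izumo1r, the folate receptor 4 of regulatory T cells, had 75.6, 56.4 and 61.3 in Tfh_WT and 22.7, 28.8 and 34.1 in Tfh_OTII. Its groups did not overlap, but its change of -1.15 did not pass in the 12-library fit (adjusted p = 0.0823) and passed in the fit of 6 libraries (0.0121).

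**Figure D2:**
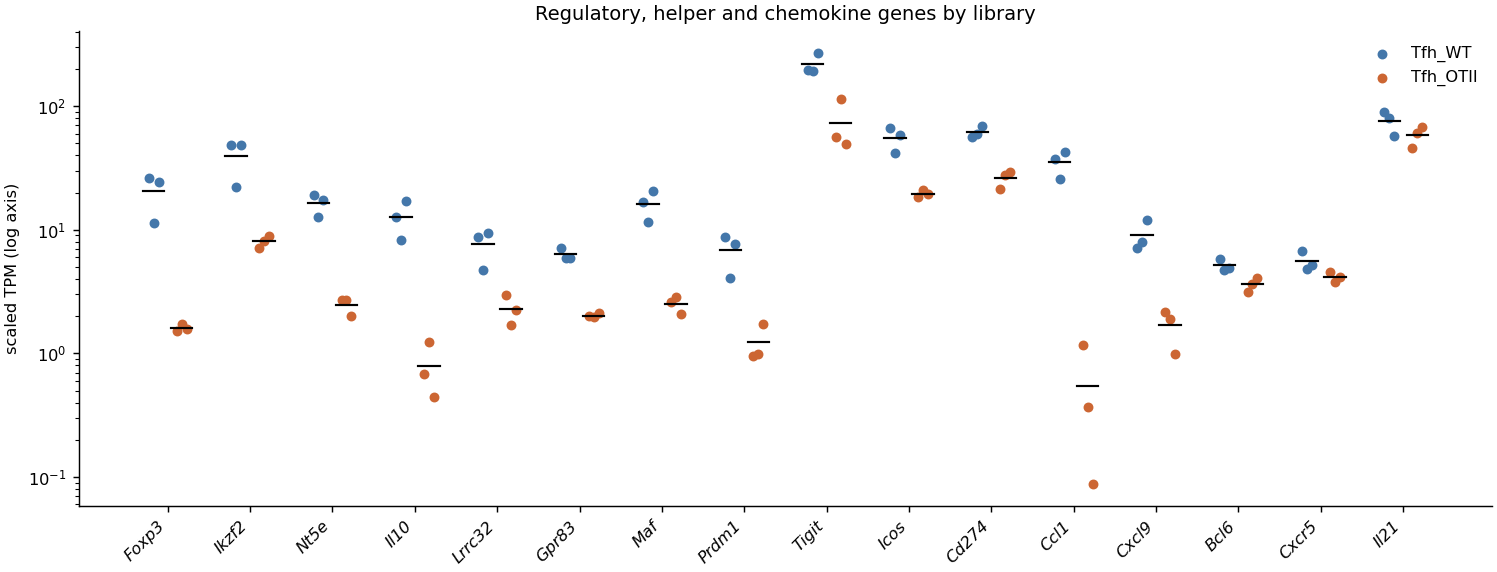
Scaled TPM (log axis) of 16 regulatory, helper and chemokine genes; each point is a library, blue for Tfh_WT and orange for Tfh_OTII, and bars are means of 3 libraries. For Foxp3, Tfh_WT libraries lie between 11.3 and 26.1 and Tfh_OTII libraries between 1.52 and 1.74, whereas Il21 overlaps.

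The genes that define Tfh cells moved less. Of 34 listed Tfh genes 32 were tested, of which 3 were lower (Maf, Tigit and Icos), 0 were higher and 29 did not pass, with a median of -0.33, beside 1.48% of all genes called lower. In 14 of the 32 the groups did not overlap and Tfh_OTII was lower, against 11.3% of all genes tested. The fit of 6 libraries called 7 lower and 0 higher. Icos, a costimulatory receptor that Tfh cells need, had 66.1, 42.2 and 58.1 scaled TPM in Tfh_WT and 18.5, 20.9 and 19.6 in Tfh_OTII, without overlap. It fell by 1.43 (SE 0.33, adjusted p = 0.0427), a call that none of the 6 leave-one-out fits kept (adjusted p from 0.0859 to 0.201) and that 6 of 14 other settings lost.

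Cxcr5 had 6.68, 4.79 and 5.18 scaled TPM in Tfh_WT and 4.54, 3.75 and 4.12 in Tfh_OTII (log2 fold change -0.34, SE 0.30, adjusted p = 0.703). Bcl6 had 5.84, 4.73 and 4.94 in Tfh_WT and 3.16, 3.67 and 4.09 in Tfh_OTII (-0.41, SE 0.22, adjusted p = 0.461). For both, all Tfh_OTII libraries lay below all Tfh_WT libraries, yet the differences were small against the pooled spread. Pdcd1 had 15.9 ± 1.81 in Tfh_WT and 11.6 ± 2.87 in Tfh_OTII (adjusted p = 0.661), and Il21 had 75.9 ± 16.2 and 58.2 ± 10.9 (adjusted p = 0.785). These p-values do not show that the levels were equal.

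Of the lineage genes named here, Tbx21, Ifng and Gata3 did not pass, nor did Il2 and Stat3. Tbx21, the Th1 factor T-bet, had 11.3, 6.54 and 9.99 scaled TPM in Tfh_WT and 2.65, 3.98 and 5.1 in Tfh_OTII (log2 fold change -1.07, SE 0.31, adjusted p = 0.108), and passed in the fit of 6 libraries (0.0393). Ifng, which T-bet drives, had 79.0 ± 15.9 and 38.2 ± 13 (-1.06, adjusted p = 0.433, and 0.039 in the fit of 6 libraries). For both genes the groups did not overlap. The Th2 factor Gata3 had 37.7 ± 8.94 and 32.8 ± 3.03 (adjusted p = 0.853). Il2, a T cell growth factor, had 96.4 ± 4.48 and 74.8 ± 6.99 (adjusted p = 0.838), and Stat3 had 113 ± 14.3 and 150 ± 30.1 (adjusted p = 0.698). Prdm1, the repressor Blimp-1 that opposes Bcl6, was lower in Tfh_OTII, at 6.86 ± 2.45 against 1.23 ± 0.449 (-1.79, SE 0.42, adjusted p = 0.044), and no leave-one-out fit kept the call (0.0744 to 0.214), which 4 of 14 other settings also lost.

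Chemokine and interferon-induced genes gave few calls. Ccl1, a chemokine that attracts CCR8+ cells, had 37.6, 25.6 and 42.6 scaled TPM in Tfh_WT and 1.18, 0.368 and 0.0872 in Tfh_OTII. With no overlap, it fell by 4.58 (SE 0.54, adjusted p = 0.00153). Cxcl9, an IFNγ-induced chemokine, had 7.17, 7.99 and 12.0 in Tfh_WT and 2.17, 1.91 and 0.995 in Tfh_OTII, and fell by 1.90 (SE 0.28, adjusted p = 0.00485). Both were called in all 6 leave-one-out fits, and they were the 2 called of 16 tested chemokines, beside 1.48% of all genes called lower. Of the 16, Tfh_OTII was lower without overlap in 8 and higher in 2, against 11.3% and 13.1% of all genes tested. The fit of 6 libraries called 4 lower and 1 higher.

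Other receptors and response genes were lower with less stable calls. Cd274, the ligand PD-L1, had 61.4 ± 6.57 scaled TPM in Tfh_WT and 26.2 ± 4.31 in Tfh_OTII (log2 fold change -1.21, adjusted p = 0.0164, called in 2 of 6 leave-one-out fits, adjusted p from 0.0369 to 0.112). Serpina3g, an interferon-induced protease inhibitor, had 14.6 ± 3.30 and 4.48 ± 0.670 (-1.50, adjusted p = 0.0162, called in 2 of 6, from 0.0294 to 0.11). Dusp4, a phosphatase induced by receptor signalling, had 23.4 ± 7.02 and 7.71 ± 1.73 (-1.46, adjusted p = 0.0317, called in 1 of 6, from 0.0458 to 0.174). The fractalkine receptor Cx3cr1 (-1.42, adjusted p = 0.0425) and the interferon-induced gene Oasl2 (-1.95, adjusted p = 0.0374) were called in 1 of 6 each, with adjusted p up to 0.235 and 0.21. All 5 lost the call without Tfh_WT replicate 3 (adjusted p from 0.11 to 0.217) and without Tfh_OTII replicate 3 (0.0628 to 0.235). Oasl2 was the sole call among 42 tested genes of the type I interferon response, beside 1.48% of all genes called lower. The median of the 42 was -0.20. Serpina3g was the sole call of 37 tested IFNγ GTPase and MHC class I genes (median -0.17). Dusp4 was that of 37 receptor-induced early and activation genes (-0.21), and Cx3cr1 that of 22 chemokine and migration receptors (-0.44). In these 3 lists 6, 9 and 11 genes were lower without overlap and 1, 0 and 0 higher, against 11.3% and 13.1% of all genes tested.

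On the higher side, mitotic genes stood together. Of 60 listed genes of mitosis and G2/M, all tested, 11 were higher in Tfh_OTII, 0 were lower and 49 did not pass, beside 0.595% of all genes called higher. Their median log2 fold change was 0.82, between 0.69 and 0.86 under 3 other scalings, and 59 of 60 were above 0. The groups did not overlap in 53 of the 60, all with Tfh_OTII higher, against 13.1% of all genes tested. Many of these genes share a promoter element, the cell cycle genes homology region (CHR, searched as TTTGAA), and the CCAAT box, which the MuvB and NF-Y complexes are known to bind. Promoters of 4 called genes that hold both are shown 5′ to 3′ on the gene's strand, from 150 bases before to 20 bases after the RefSeq start (GRCm38.p6), with CHR and CCAAT letters on either strand in capitals.
Cenpf: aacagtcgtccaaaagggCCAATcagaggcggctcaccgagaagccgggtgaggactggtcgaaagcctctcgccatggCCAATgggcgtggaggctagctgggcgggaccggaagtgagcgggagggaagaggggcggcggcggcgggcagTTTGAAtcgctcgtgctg
Hmmr: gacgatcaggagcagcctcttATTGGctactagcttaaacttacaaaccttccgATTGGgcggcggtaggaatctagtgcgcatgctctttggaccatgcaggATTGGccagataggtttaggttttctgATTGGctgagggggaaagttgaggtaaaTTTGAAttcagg
Ttk: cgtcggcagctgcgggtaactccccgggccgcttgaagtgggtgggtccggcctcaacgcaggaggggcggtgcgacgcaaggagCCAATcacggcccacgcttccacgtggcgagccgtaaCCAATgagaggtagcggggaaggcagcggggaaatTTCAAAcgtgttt
Aspm: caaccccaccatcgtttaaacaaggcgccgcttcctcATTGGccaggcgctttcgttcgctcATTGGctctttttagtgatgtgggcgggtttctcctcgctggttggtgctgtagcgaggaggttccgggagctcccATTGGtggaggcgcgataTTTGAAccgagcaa

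The windows lie at chr1:189688067-189688236 (minus strand) for Cenpf, chr11:40733418-40733587 (minus) for Hmmr, chr9:83834539-83834708 (plus) for Ttk and chr1:139454623-139454792 (plus) for Aspm. Each holds 1 CHR, whose first base lies 3, 9, 8 and 7 bases into the transcript in that order, counting the start as 1, and between 2 and 4 CCAAT boxes. In RefSeq windows of 300 bases around the first listed start, matched for 51 of the 60 mitotic genes, 34 (66.7%) held TTTGAA on either strand, beside 18.1% of 27025 promoters in the table. Of the 11 called genes 10 had a window and 7 of these held it. Of 48 matched genes of DNA replication and S phase 7 (14.6%) held it. CCAAT was found in 72.5% of the mitotic promoters, 64.6% of the S phase promoters and 37.9% of all promoters. The 2 motifs share no overlap in these 4 windows, and a match of letters is not a binding site.

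Cenpf (chr1, 189640606 to 189688086, minus strand, GRCm38), a kinetochore and nuclear matrix protein, had 12.0, 13.1 and 12.1 scaled TPM in Tfh_WT and 45, 57.1 and 72.7 in Tfh_OTII. It rose by 2.12 on the log2 scale (SE 0.24, adjusted p = 0.00135). Kif20b, a kinesin needed to finish cytokinesis, had 13.1, 16.9 and 13.9 in Tfh_WT and 40.4, 49.2 and 60.6 in Tfh_OTII, and rose by 1.70 (SE 0.23, adjusted p = 0.00343). Neither gene's groups overlapped, and these 2 were the mitotic genes called in all 6 leave-one-out fits.

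Among kinetochore proteins, Knl1, a scaffold that recruits checkpoint kinases, had 8.14, 7.72 and 5.78 scaled TPM in Tfh_WT and 22.7, 32.5 and 35.2 in Tfh_OTII (log2 fold change 1.91, SE 0.38, adjusted p = 0.0212). Cenpe, the kinetochore kinesin, had 14.5, 15.9 and 12.1 in Tfh_WT and 40.1, 53.3 and 60.4 in Tfh_OTII (1.78, SE 0.33, adjusted p = 0.0157). Ttk, the checkpoint kinase MPS1, had 6.13, 5.18 and 4.26 in Tfh_WT and 9.76, 14.8 and 17.7 in Tfh_OTII (1.26, SE 0.29, adjusted p = 0.0395). In each gene all Tfh_OTII libraries exceeded all Tfh_WT libraries, and Tfh_OTII replicate 1 was the lowest of its group. That replicate was also lowest for Cd4 and the summed ribosomal protein genes, and highest for the summed olfactory and vomeronasal receptors.

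Sgo2a, which protects centromeric cohesion, had 4.80 ± 0.808 scaled TPM in Tfh_WT and 15.1 ± 2.69 in Tfh_OTII (log2 fold change 1.47, adjusted p = 0.0162). Ccnb1, the cyclin that starts mitosis with Cdk1, had 29.1 ± 4.99 and 73.5 ± 17 (1.30, adjusted p = 0.0274). Of the spindle proteins, Aspm, at the spindle poles, had 7.07 ± 0.702 and 18.3 ± 3.98 (1.24, adjusted p = 0.0378). Hmmr, a microtubule-binding protein, had 24.8 ± 3.89 and 58.2 ± 8.35 (1.2, adjusted p = 0.012), and Dlgap5, which bundles spindle fibres, had 32.8 ± 7.81 and 75.7 ± 23.9 (1.17, adjusted p = 0.0378). Kif15, a spindle kinesin, had 49.5 ± 6.31 and 104 ± 19.1 (1.05, adjusted p = 0.0399). Of these, Kif15 lost its call under 7 of 14 other settings and Dlgap5 under 6.

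The 9 mitotic genes called besides Cenpf and Kif20b depended on the libraries kept. With 1 library left out, the number of mitotic genes called was 3, 2 and 2 without Tfh_WT replicates 1, 2 and 3, and 10, 5 and 2 without Tfh_OTII replicates 1, 2 and 3. Without Tfh_WT replicate 3 the adjusted p of these 9 lay between 0.0906 (Hmmr) and 0.224 (Kif15 and Dlgap5), and without Tfh_OTII replicate 3 between 0.0771 (Hmmr) and 0.225 (Ttk). In the fit of 6 libraries 24 of the 60 were higher and 0 lower.

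Mki67, a coat protein of mitotic chromosomes and the usual proliferation marker, had 61.3, 61.8 and 44.2 scaled TPM in Tfh_WT and 144, 197 and 237 in Tfh_OTII. The groups did not overlap, but its log2 fold change of 1.76 (SE 0.45) did not pass in the 12-library fit (adjusted p = 0.0652) and did in the fit of 6 libraries (0.00318). None of 60 genes of DNA replication and S phase was called by limma (9 had an unadjusted p under 0.05), although 58 lay above 0 with a median of 0.52 and in 39 Tfh_OTII was higher without overlap, against 13.1% of all genes tested. The fit of 6 libraries called 5 of them higher and 1 lower. Myc, which drives growth of activated T cells, had 123 ± 24.2 and 161 ± 30.7 (adjusted p = 0.756).

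Other called genes outside that list, picked from the calls and not a list of their own, act on chromosomes. Smc4, a condensin subunit, had 187, 199 and 179 scaled TPM in Tfh_WT and 380, 516 and 615 in Tfh_OTII (log2 fold change 1.39, SE 0.26, adjusted p = 0.0161). Top2b, a DNA topoisomerase, had 76.7, 72.7 and 61.5 in Tfh_WT and 159, 173 and 224 in Tfh_OTII (1.38, SE 0.24, adjusted p = 0.012), and the chromatin remodeller Atrx had 119 ± 10.1 and 307 ± 73.0 (1.33, adjusted p = 0.0171). In each of these genes the lowest Tfh_OTII library was above the highest Tfh_WT library.

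Smc3, a cohesin subunit, rose by 1.15 (adjusted p = 0.0221) and Tpr, a nuclear pore protein, by 1.24 (0.012). Mnd1, a recombination cofactor (1.40, adjusted p = 0.0159), Parpbp, a PARP1-binding regulator of homologous recombination (1.33, 0.0248), and Hdgfl3 (1.45, 0.0201) rose as well. Of these 8 genes Top2b, Atrx, Tpr and Mnd1 were called in 3 of 6 leave-one-out fits, Smc4 in 2, and Smc3, Parpbp and Hdgfl3 in 1. Without Tfh_WT replicate 3 their adjusted p lay between 0.0845 (Top2b) and 0.142 (Parpbp), and without Tfh_OTII replicate 3 between 0.0755 (Top2b and Tpr) and 0.156 (Parpbp). The called mitotic genes were longer than the rest of that list, with a median transcript length of 3081.5 bases against 2105 for those not called and 2089.5 for the genes tested with a length. The part of transcript length in these calls was not tested. Over 5 groups of genes by length the median log2 fold change went from 0.10 for the shortest to 0.02 for the longest, whereas the longest group had 23 genes called higher and 62 lower, against 8 to 13 higher and 34 to 49 lower in the others.

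Of 37 tested genes of cholesterol and fatty acid synthesis 1 was called, beside 0.595% of all genes called higher. Of the 37, 32 were above 0 with a median of 0.32. In 18 Tfh_OTII was higher without overlap, against 13.1% of all genes tested, and the fit of 6 libraries called 4 higher. Fads2, the fatty acid delta-6 desaturase, had 1.40 ± 0.0777 scaled TPM in Tfh_WT and 5.11 ± 1.2 in Tfh_OTII (log2 fold change 1.33, SE 0.28, adjusted p = 0.0284). No leave-one-out fit kept this call (adjusted p from 0.0514 to 0.16).

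**Figure D3:**
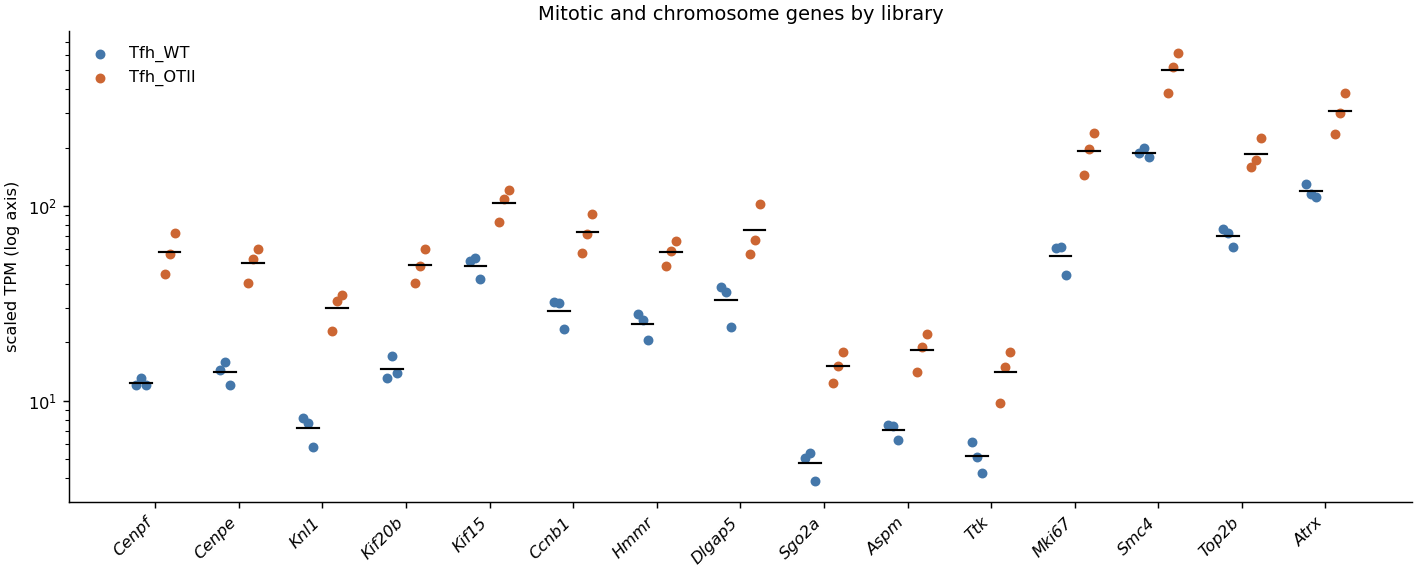
Scaled TPM (log axis) of 15 mitotic and chromosome genes; each point is a library, blue for Tfh_WT and orange for Tfh_OTII, and bars are means of 3 libraries. The 3 Tfh_OTII libraries lie above the 3 Tfh_WT libraries in every gene shown, from 45 or more against 13.1 or less for Cenpf to 380 or more against 199 or less for Smc4.

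Rnf43 (chr11, 87662722 to 87735539, plus strand, GRCm38), a membrane ubiquitin ligase that removes Wnt receptors from the cell surface, had a higher fold change than any mitotic gene of the list. It had 3.66, 2.79 and 3.67 scaled TPM in Tfh_WT and 41.0, 48.2 and 61.5 in Tfh_OTII. It rose by 3.54 (SE 0.29, adjusted p = 6.54e-05) and was called in all 6 leave-one-out fits. No library of the 9 outside Tfh_OTII exceeded 4.90. The other genes within 250000 bases of Rnf43 that were tested did not pass, the nearest being Supt4a, a transcription elongation factor (57.3 and 46.1 on average, adjusted p = 0.645). Tcf7, a transcription factor of the Wnt pathway and of naive T cells, had 160 ± 33.4 and 207 ± 44.0 (adjusted p = 0.663).

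Among the highest fold changes were receptor segments and pseudogenes. The pseudogene Rpl38-ps2 had the highest (8.01), and pseudogenes gave 37 of the 117 higher and 42 of the 291 lower genes, calls that stay uncertain where reads match a parent gene. Of all 19660 genes tested 3826 were pseudogenes. The segment Trav14d-1, which shares near-identical copies in its family so that reads could be split between them, had 5.74, 5.97 and 4.45 scaled TPM in Tfh_WT and 749.9, 1023 and 1178 in Tfh_OTII (log2 fold change 7.25, SE 0.38, adjusted p = 5.19e-07). Trac, the alpha constant gene (chr14, 54220521 to 54224206, plus strand), had 334, 217 and 257 in Tfh_WT and 1327, 1761 and 1925 in Tfh_OTII, and rose by 2.63 (SE 0.31, adjusted p = 0.00153). Trbc2, a beta constant gene, had 293, 227 and 219 in Tfh_WT and 308, 412 and 484 in Tfh_OTII, and its change of 0.69 did not pass (SE 0.29, adjusted p = 0.301). The groups did not overlap in any of these 3 genes, yet Trac and Trbc2 differed in the size of their change.

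Constant genes of gamma and delta receptors, which are not part of the OT-II receptor, were higher too. Trdc, the delta constant gene, had 1.29, 1.48 and 1.32 scaled TPM in Tfh_WT and 7.34, 10.7 and 11.9 in Tfh_OTII (log2 fold change 2.19, SE 0.27, adjusted p = 0.00204). The gamma constant gene Tcrg-C2 had 1.56, 1.87 and 1.82 in Tfh_WT and 14.1, 19.9 and 26.1 in Tfh_OTII (2.90, SE 0.39, adjusted p = 0.00344), and Tcrg-C4 had 1.88 ± 0.337 and 12.5 ± 5.14 (2.17, SE 0.38, adjusted p = 0.012). All 3 were without overlap.

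Trdc and Tcrg-C2 were called in all 6 leave-one-out fits, and Tcrg-C4 lost its call without Tfh_WT replicate 3 (adjusted p = 0.0663) and without Tfh_OTII replicate 3 (0.0771). The joining segment Trgj2 was listed at 0 in all 9 libraries outside Tfh_OTII and had 8.37, 11.9 and 43.8 in Tfh_OTII. Trdv5, a delta variable segment that overlaps Trdc on the opposite strand, had at most 0.207 in Tfh_WT and at least 5.35 in Tfh_OTII (adjusted p = 0.00824). With a pseudocount of 0.1 in place of 1, Tcrg-C2 (adjusted p = 0.0992), Tcrg-C4 (0.183) and Trdv5 (0.0826) lost their calls. Whether the authors' counting used strand is not given in the sources used here. Coordinates come from GENCODE M21.

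**Figure D4:**
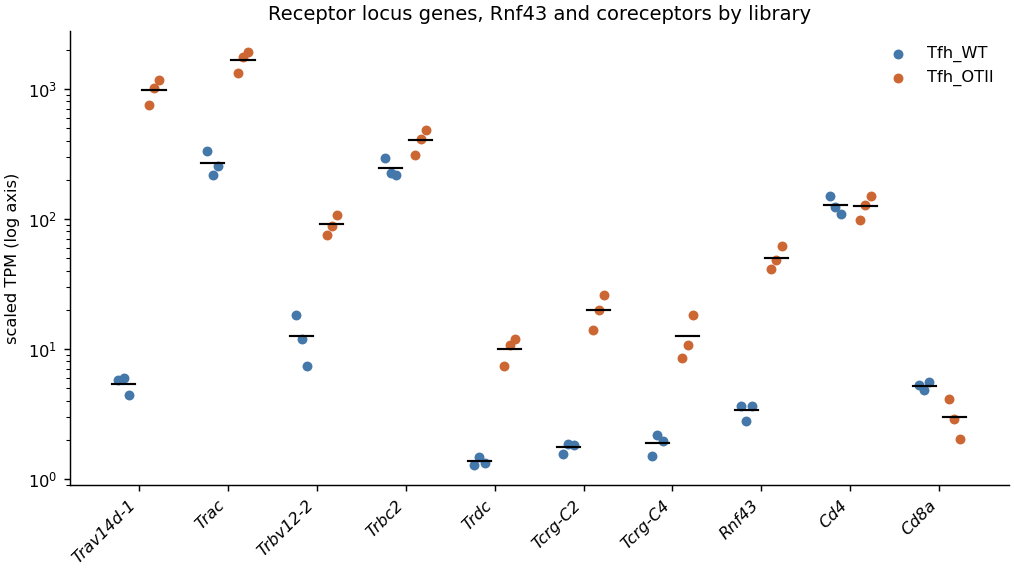
Scaled TPM (log axis) of receptor locus genes, Rnf43 and the coreceptors Cd4 and Cd8a; each point is a library, blue for Tfh_WT and orange for Tfh_OTII, and bars are means of 3 libraries. Trac libraries lie between 217 and 334 in Tfh_WT and between 1327 and 1925 in Tfh_OTII, whereas Cd4 overlaps.

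Markers of other cell types were measured beside these groups. Of 16 tested markers of CD8, natural killer and innate-like T cells, Trdc, Tcrg-C2 and Tcrg-C4 were higher and Klra7, a natural killer receptor, was lower (6.21 ± 2.00 against 0.689 ± 0.357, adjusted p = 0.0195, called in 1 of 6 leave-one-out fits, adjusted p from 0.0498 to 0.103). Their summed level ranged from 63.8 to 68.2 scaled TPM in Tfh_WT and from 84.6 to 137 in Tfh_OTII. Cd8a had 5.21 ± 0.353 and 3.01 ± 1.05 (adjusted p = 0.271). The highest library of Cd8b1 had 9.34 in Tfh_WT and 18.3 in Tfh_OTII, and that of Klrc1 6.58 and 18.3. Of the 16 markers 9 lay above 0 and 7 below. In 6 Tfh_OTII was higher without overlap and in 5 lower, against 13.1% and 11.3% of all genes tested. A fit of the 6 libraries called 5 higher and 2 lower. Over all genes tested 0.595% were called higher and 1.48% lower. Of 18 B cell markers 2 were lower: Igkc, the kappa constant gene (23.6 ± 5.29 against 7.26 ± 1.70, adjusted p = 0.0188, called in 0 of 6, from 0.0562 to 0.0832), and the receptor Cd22 (22.4 ± 3.66 against 7.31 ± 3.38, adjusted p = 0.0321, called in 1 of 6, from 0.0224 to 0.179). Of these 18 markers 5 were lower without overlap, against 11.3% of all genes tested, and a fit of the 6 libraries called 3 lower. The B cell sum ranged from 132 to 154 in Tfh_WT and from 78.3 to 83.6 in Tfh_OTII. None of 16 dendritic cell markers, 14 markers of macrophages, monocytes and neutrophils and 11 of red cells, platelets and stroma was called by limma, where 1, 1 and 0 had an unadjusted p under 0.05. A fit of the 6 libraries called 0 dendritic and 0 red cell, platelet and stromal markers, and 1 higher and 1 lower of the macrophage list. The sums of these 3 lists cover all 16, 22 and 16 members in the files, tested or not. They ranged from 161 to 221, from 76.1 to 87.8 and from 112 to 128 in Tfh_WT. In Tfh_OTII they ranged from 144 to 163, from 62.8 to 74.9 and from 78.4 to 86.5. Single members made up much of each sum. Ccr7, in the dendritic list, reached 121 in Tfh_WT and 102 in Tfh_OTII. Ctss, in the macrophage list, reached 46.9 and 35.2, and Pecam1, in the red cell, platelet and stromal list, 102 and 62.5. No B cell, dendritic cell, myeloid or natural killer marker of these lists was at 0 in all 6 libraries. The part of such cells in the results above was not tested.

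Lower genes with large fold changes included several that are best known from other tissues. Myo7a (chr7, 98051060 to 98119524, minus strand), a myosin of inner ear hair cells and retina, had 164, 343 and 329 scaled TPM in Tfh_WT and 10.8, 20.4 and 2.69 in Tfh_OTII, and fell by 4.77 (SE 0.59, adjusted p = 0.00204). Pou1f1, a pituitary transcription factor, had 377, 501 and 626 in Tfh_WT and 52.4, 60.4 and 23.9 in Tfh_OTII, and fell by 3.50 (SE 0.46, adjusted p = 0.00305). Tlr1, a receptor for bacterial lipopeptides, had 197, 388 and 393 in Tfh_WT and 35.2, 42.4 and 11.5 in Tfh_OTII, and fell by 3.53 (SE 0.54, adjusted p = 0.00616). In all 3 the groups were far apart, and Tfh_OTII replicate 3 was the lowest of all 6 libraries. Their means in Tfh_WT (279, 502 and 326 scaled TPM, in that order) lay above that of Cd4 (127). Whether these values, and those of the genes in the next paragraph, stem from transcripts of the genes named was not tested.

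Xkrx, a relative of the Kell blood group partner XK, fell by 4.36 (adjusted p = 0.00307), Phactr1, a protein phosphatase 1 regulator, by 2.84 (0.00485), and Clcn7, a lysosomal chloride transporter, by 2.72 (0.00437). Megf11, a cell surface protein of retinal neurons (-2.67, adjusted p = 0.00297), and Arsb, a lysosomal sulfatase (-2.65, 0.00522), were lower too. Like Myo7a, Pou1f1 and Tlr1, these 5 were called in all 6 leave-one-out fits. Cdk15, a cyclin-dependent kinase (-3.12, adjusted p = 0.0117), and Cd300lf, an inhibitory myeloid receptor (-2.91, 0.0104), were called in 3 of 6, with adjusted p up to 0.0768 and 0.0648 without Tfh_OTII replicate 3. Fam81a (-2.71, adjusted p = 0.0151) was called in 2 of 6 (from 0.00626 to 0.0916) and Sfta2, a surfactant-associated secreted protein (-4.13, 0.0291), in 1 of 6 (from 0.0324 to 0.166).

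Olfactory and vomeronasal receptors, a list added after these values were seen, also had lower calls. Of 1736 such genes 578 passed the filter on low values, of which 30 were lower (beside 1.48% of all genes), 0 were higher and 486 lay below 0, with a median of -0.32. Summed over all 1736, scaled TPM was 6184, 7075 and 7067 in Tfh_WT and 5504, 4813 and 3930 in Tfh_OTII. The number called lower depended on the library left out, from 0 without Tfh_OTII replicate 3, through 1 without Tfh_WT replicate 2 or 3, 6 without Tfh_OTII replicate 1 and 18 without Tfh_WT replicate 1, to 31 without Tfh_OTII replicate 2. The share of symbols listed at 0 moved with these sums within Tfh_OTII, being highest in replicate 3, and its part in the result was not tested.

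Repeat-derived gene models moved further. The 12 satellite-like models, whose reads cannot be assigned to single copies, were all lower in Tfh_OTII, and made up 2.75%, 13.3% and 8.48% of TPM in Tfh_WT and 0.458%, 0.298% and 0.0873% in Tfh_OTII (exact two-sided permutation p = 0.1, the smallest possible). The largest, Gm10800 (chr2, 98666547 to 98667301, minus strand), averaged 43359 scaled TPM in Tfh_WT and 1281 in Tfh_OTII. Tfh_WT replicate 1 was nearest to the Tfh_OTII libraries. With 1 library left out, the number of these models called was 12, 5 and 5 without Tfh_WT replicates 1, 2 and 3, and 10, 11 and 4 without Tfh_OTII replicates 1, 2 and 3.

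Chromosome X was described beside the Y-linked difference. Of 759 X-linked genes tested 9 were higher and 26 (3.43%) were lower, with a median of -0.16, and of 18559 autosomal genes 101 were higher and 262 (1.41%) lower, with a median of 0.05. None of 11 tested X-linked genes that have a Y homologue or are known to escape inactivation was called by limma (5 had an unadjusted p under 0.05, and the fit of 6 libraries called 1 lower). Among these, the histone demethylase Kdm6a had 26.0 ± 2.45 and 17.1 ± 1.40 (adjusted p = 0.176), the translation factor Eif2s3x 73.3 ± 10.1 and 43.9 ± 6.42 (0.23), and the helicase Ddx3x 126 ± 18.8 and 199.7 ± 44.8 (0.213). A test of autosomal genes alone called 100 higher and 259 lower.

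**Figure D5:**
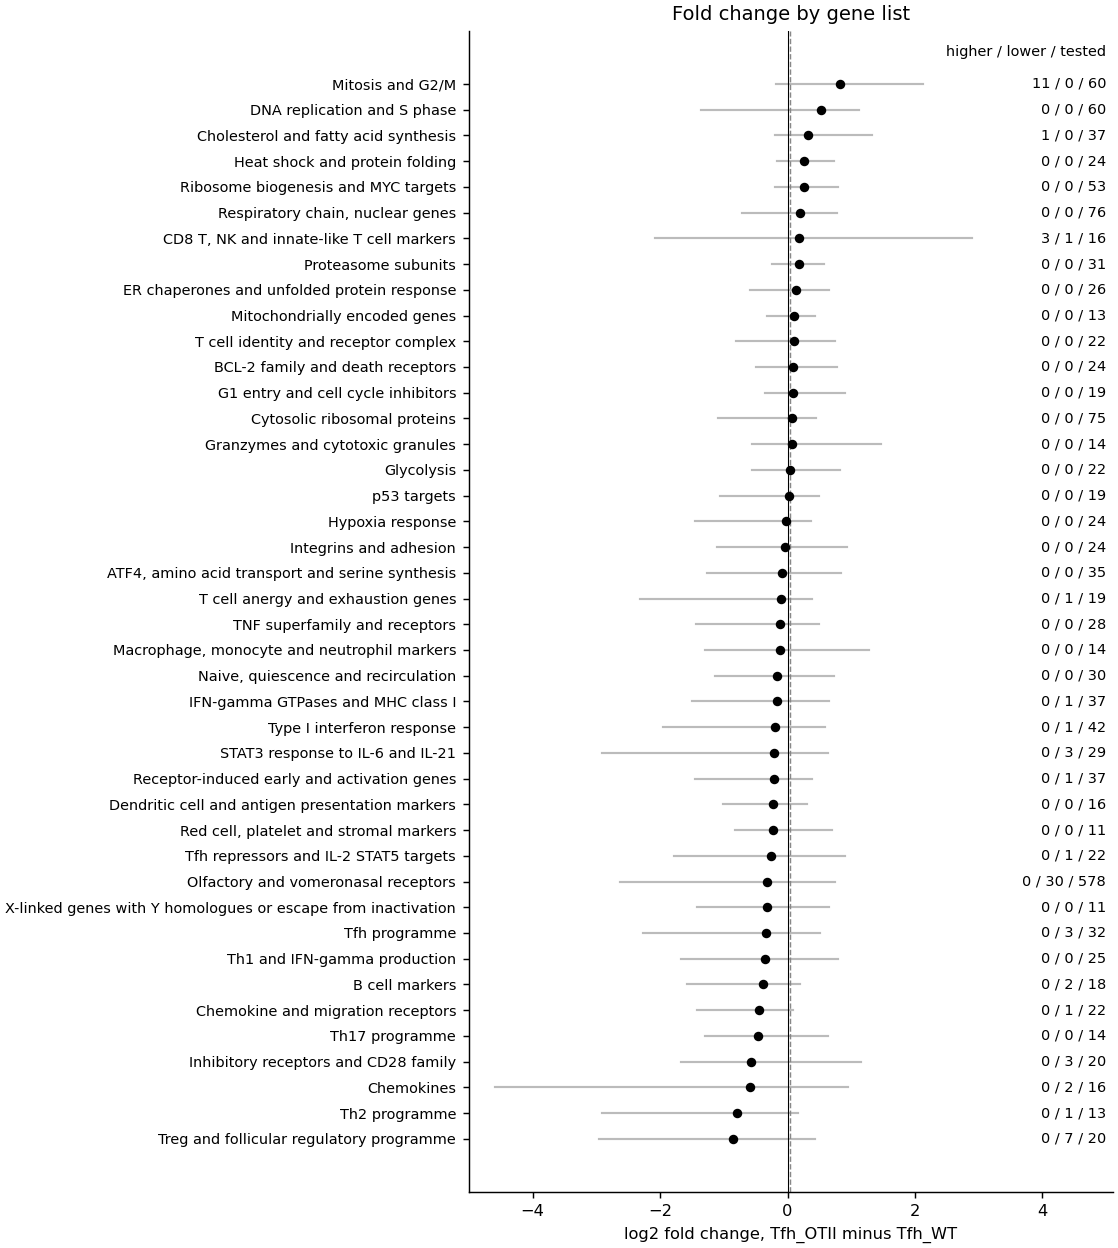
Median log2 fold change (points) and range over members (lines) of each gene list other than the satellite-like models, with the numbers called higher, called lower and tested at the right; the dashed line is the median of all genes tested. Among the lists shown, mitosis and G2/M is at the top with 0.82, and the regulatory programme is at the bottom with -0.85.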

How the data were processed

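Per the labels' protocols, total RNA from 300000 CD4+ T cells gave stranded, ribosomal RNA-depleted libraries, read as pairs of 75 bases. The authors' deposited values are TPM, 1 per gene symbol for 35492 symbols in each library, made with kallisto on mm10 per the submitters' processing notes. The version, the annotation and any pooling are not given in the sources used here. TPM are corrected for length and sum to 1000000 in each library, so a few abundant models lower all others and no counting interval can be given.

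Each library was divided by a median-of-ratios size factor over 17585 genes above 0 in all 12 libraries. Genes with a mean of at least 1 scaled TPM in Tfh_WT or Tfh_OTII were tested, without 993 symbols on chromosome Y. limma 3.58.1 (R 4.3.3) was fitted to log2(scaled TPM + 1) with 1 mean for each of 4 groups over 12 libraries and an intensity trend, with Benjamini-Hochberg adjustment over the genes tested and a threshold of 0.05. Since the deposited values are not counts, no count test was used. Shares were compared by exact permutation tests. The fit was checked on simulated data. Python 3.11.15, numpy 2.4.6, pandas 2.3.3, scipy 1.17.1 and matplotlib 3.10.9 were used for tables and figures. Of the symbols, 97.96% matched GENCODE M21, which gave positions and gene types. Alternatives covered scaling, pseudocount, filter, gene types, the libraries fitted, the variance trend, a replicate block and each library left out.

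The comparison and 42 gene lists were chosen with earlier results of these data known. Named genes were the first 15 called genes in each direction by fold change, given 5 scaled TPM or more on average in the higher group and no overlap of libraries, up to 4 called members in each direction of a list (all where a list had 6 or fewer), and a fixed set of helper, identity and growth genes. Unnamed models, pseudogenes, small RNA, histone, mitochondrial, receptor and immunoglobulin genes were outside the first part of the rule. The text gives a part of these. Members of the mitotic and regulatory lists beyond that number, Smc3, Tpr, the segments and constant genes of T cell receptors, Rpl38-ps2, Supt4a, Izumo1r, Ctla4, Kdm6a, Ddx3x, Eif2s3x and the chromosome Y genes were added after their values were seen. Some genes that the rule names are not reported here.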

Additional observations from a re-analysis of the deposited data

Results flagged for a closer look

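Chromosome Y genes lay outside the comparison, and 5 of them had a signal in Tfh_OTII above every Tfh_WT library. Mean scaled TPM in Tfh_OTII was 28.4 for Ddx3y, 59.4 for Eif2s3y, 23.4 for Kdm5d, 14.1 for Sly and 6.31 for Srsy. In Tfh_WT Ddx3y did not exceed 1.13, Eif2s3y 1.62 and Srsy 0.436, and Sly was listed at 0 in all 3 libraries. Kdm5d reached 15.8 in Tfh_WT and was at least 21.4 in Tfh_OTII. Uty went the other way, with 85.7 to 139 in Tfh_WT and 26.8 to 30.3 in Tfh_OTII. Uty and Kdm5d thus had signal in Tfh_WT libraries where Ddx3y, Eif2s3y and Srsy did not exceed 1.62 and Sly was at 0. Whether that signal stems from transcripts of Uty and Kdm5d was not tested. Sly and Srsy belong to families with many copies, so the authors' counting could split their reads. The labels give no sex, and genotype, title hours and these chromosome Y genes separate the same libraries and cannot be told apart.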

How the results depend on the processing

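The number of genes higher in Tfh_OTII moved from 117 to 183 with TPM as deposited, 77 with trimmed-mean scaling, 57 with a pseudocount of 0.1, 71 without a filter, 54 with named protein-coding genes only, 448 with only the 6 compared libraries fitted and 291 without the Th1_WT group in the fit, a setting chosen after seeing the data. The number lower moved from 291 to 694 with only the 6 libraries and 518 without the Th1_WT group. With each compared library left out in turn, genes higher ranged from 30 to 82 and genes lower from 50 to 302, and the differences in share ranged from 73.9 to 75.8 percentage points for Trav14, 31.3 to 31.9 for Trbv12 and -10.6 to -5.34 for the satellite-like models. With the replicate number as a replicate block, 80 genes were higher and 267 lower over all 12 libraries, and 366 and 914 over the 6. The labels do not say that numbers pair libraries, and same-numbered libraries did not deviate together (Pearson correlations over genes of -0.478, -0.0763 and -0.378), so the paired fit is given here alone. The log2 fold change of Cd4, -0.03, turned to 0.0105 as deposited, and ranged from -0.174 to 0.13 with 1 library left out, above 0 without Tfh_WT replicate 1 (0.0855) or Tfh_OTII replicate 1. No other gene of the text changed its direction under the settings run. Against 14 settings other than leaving out a library, Ttk lost its call under 4, Aspm, Gpr83, Fads2 and Cx3cr1 under 3 each, Dusp4, Oasl2 and Sfta2 under 2 each, and Ccnb1, Smc3, Knl1, Sgo2a, Parpbp, Cd22 and Tigit under 1 each. The median log2 fold change of all genes, 0.04, was 0.07 as deposited, -0.02 with trimmed-mean scaling and -0.07 with factors from genes at 10 TPM or more. The TPM files hold no depth, which limits what low values can show.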

Other observations

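Beyond the gene groups above, housekeeping programmes had few or no calls. Cytosolic ribosomal protein genes (75 tested, median log2 fold change 0.07), nuclear respiratory chain genes (76, median 0.19), ribosome biogenesis and MYC target genes (53, median 0.25), proteasome subunits (31, median 0.18) and glycolysis genes (22, median 0.04) had 0 genes called by limma, where 3, 3, 0, 0 and 1 had an unadjusted p under 0.05. A fit of the 6 libraries called 1 ribosomal protein gene and 1 glycolysis gene. With factors from genes at 10 TPM or more, the medians were -0.06, 0.06, 0.12, 0.04 and -0.09, so the sign for ribosomal protein and glycolysis genes depended on the scaling.

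Of all genes tested 1.48% were called lower, and 11.3% were lower without overlap. Th2 genes had 1 call of 13 tested (Il10, lower) with a median of -0.80, and in 8 of them Tfh_OTII was lower without overlap. Inhibitory receptors and CD28 family genes had 3 lower calls of 20 (Tigit, Icos and Cd274) with a median of -0.57 and 14 lower without overlap. Naive and recirculation genes had 0 calls of 30 by limma, 4 with an unadjusted p under 0.05 and 1 lower in the fit of 6 libraries, with a median of -0.16.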
